A study of Mus musculus with 16 samples.

Results

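The RNA levels of 42 cell cycle genes were examined in 4 sorted cell types of the mouse liver and compared between 2 genotype labels in each cell type. The 42 genes were taken as a list of symbols, with no threshold on a measured value, and all 42 were found among the 47729 genes of the count files. The list was chosen with earlier results of these data known. They comprise 6 G1 cyclins and G1/S regulators, 12 genes of DNA replication, 9 regulators of G2 and mitosis, 13 genes of the spindle, kinetochore and cytokinesis, and the chromosome proteins Mki67 and Top2a.

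The mice carried a floxed exon 7 of Zeb2, a zinc finger transcription factor, and animals labelled KO also carried Cdh5-CreERT2, a tamoxifen-inducible Cre driven by an endothelial promoter. The study's methods also name a Cre-dependent eGFP reporter (R26R CAG-eGFP). Animals labelled WT were littermates without Cre, and both labels received tamoxifen at 2 mg per day for 5 days, so that the agent was shared by all groups. Male mice were 8 weeks old and RNA was taken 2 weeks after tamoxifen, unless the study's methods state otherwise, and the livers had received no toxin. Hepatocytes (HEP) were separated by centrifugation, and hepatic stellate cells (HSCs, UV+), Kupffer cells (KCs, UV- F4/80+) and endothelial cells (ECs, UV- and positive for a pan-endothelial marker) were sorted from the remaining cells. Each cell type had 2 libraries of either label, 16 in all, and labels do not say which libraries came from 1 animal, so that p-values measure the spread between libraries. Cre was driven in ECs, so that KC, HSC and HEP libraries labelled KO come from cells next to the targeted ones.

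A cell that divides passes through G1, copies its DNA in S phase and separates its chromosomes in mitosis. Cyclins bind and switch on cyclin-dependent kinases, CDK inhibitors hold them back, and E2F factors switch on genes for DNA synthesis. Genes of G2 and mitosis are repressed in resting cells by the DREAM complex, which binds the CHR element (cell cycle genes homology region), often beside CCAAT boxes. Most cells of the unchallenged adult liver rest outside the cycle.

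Promoters of 4 members, 1 for the MCM helicase, 1 for the mitotic kinase and both chromosome proteins, are printed because these elements mark the 2 waves of transcription that the members belong to. Each line gives 120 bases that end 30 bases before the RefSeq start (build GRCm38.p6, 5′ to 3′ along the gene, all on the minus strand). Capitals mark exact matches on either strand to CHR letters (TTTGAA or TTCGAA), the CCAAT letters or E2F letters (TTTGGCGC, TTTCGCGC or TTTCCCGC). The windows lie at chr1:128359736-128359855 for Mcm6, chr10:69352943-69353062 for Cdk1, chr7:135716410-135716529 for Mki67 and chr11:99024220-99024339 for Top2a.
Mcm6: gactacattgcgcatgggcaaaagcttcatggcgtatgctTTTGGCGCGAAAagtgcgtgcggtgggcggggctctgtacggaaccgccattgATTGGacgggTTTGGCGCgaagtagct
Cdk1: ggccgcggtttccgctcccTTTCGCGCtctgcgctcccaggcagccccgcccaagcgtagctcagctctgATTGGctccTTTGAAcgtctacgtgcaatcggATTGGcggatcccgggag
Mki67: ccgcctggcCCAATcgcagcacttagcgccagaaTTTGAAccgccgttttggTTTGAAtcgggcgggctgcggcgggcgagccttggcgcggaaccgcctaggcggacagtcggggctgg
Top2a: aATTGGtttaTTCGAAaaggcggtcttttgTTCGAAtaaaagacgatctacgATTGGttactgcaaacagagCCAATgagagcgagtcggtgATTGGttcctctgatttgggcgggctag
The Mcm6 window, of a gene for a subunit of the replicative helicase, held E2F letters and a CCAAT box and no CHR letters, with 2 of the E2F matches overlapping on opposite strands. The windows of Mki67 and Top2a held CHR letters and CCAAT boxes and no E2F letters, and the Cdk1 window held all of them. A match of letters is a description and not a site of binding.

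RefSeq promoter windows of 300 bases, from 250 before to 50 after the start, were matched for 34 of the 42 genes, which gave 38 windows. Ccnd1, Ccne2, Mcm4, Ccna2, Foxm1, Aurkb, Kif20a and Tpx2 were not matched. CHR letters were present in 50% of the members' windows against 19.2% of all 32851 promoter windows. A CCAAT box was present in 76.3% against 37.4%, and E2F letters in 15.8% against 1.84%. The CHR share depended on the window, since before the start alone it was 31.6% against 17.1%. By role, CHR letters were found in 6 of 7 windows of G2 and mitosis regulators and in 8 of 11 windows of spindle and cytokinesis genes, in 3 of 12 windows of replication genes and in 0 of 6 windows of G1 genes. Before the start alone these counts were 4 of 7, 3 of 11, 3 of 12 and 0 of 6, so that spindle and replication genes had like shares there. E2F letters were found in 5 of 12 replication windows and in 0 of 11 spindle windows.

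Libraries held 12872706 to 15690506 reads on genes, so that the smallest level taken as detected, 3 counts, was 0.191 to 0.233 counts per 1000000 reads on genes (CPM). Summed markers of the labelled cell type stood far above those in the other cell types, at 12930 to 17540 CPM for EC markers in ECs, 31540 to 35250 for KC markers in KCs, 44090 to 52590 for HSC markers in HSCs and 86490 to 100100 for hepatocyte markers in hepatocytes. Hepatocyte markers were also present in the other libraries, with 10780 and 22020 CPM in EC WT and 2543 and 1811 CPM in EC KO (replicates 1 and 2 in each pair). In KC KO replicate 1 the summed markers of immature neutrophils, cells that divide, were 113 CPM against 0.47 to 4.24 CPM in the other KC libraries. They were also high in EC WT replicate 2 (37.7 against 2.22 to 10.8 CPM in the other EC libraries), which held the most B cell marker RNA of the ECs as well (105 against 34.1 to 51.5 CPM), and in HSC KO replicate 2 (23.6 against 0.207 to 3.90 CPM in the other HSC libraries). Their part in the results below was not tested. Zeb2 itself was not lower in EC KO, at 198.9 and 130.1 CPM against 106.5 and 105.7 CPM in EC WT. The count covers all exons, so that loss of exon 7 cannot be read from it, and groups are called by their labels.

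ECs and KCs held more cell cycle RNA than HSCs and hepatocytes. Summed over the 42 genes, EC libraries held 1219 to 2066 CPM, KC libraries 700 to 1193 CPM, HSC libraries 349 to 495 CPM and hepatocyte libraries 110 to 166 CPM, and the ranges of the 4 cell types did not overlap. Without the 6 G1 genes, which include Cdkn1a and Ccnd1, ECs (456.5 to 977 CPM) and KCs (414.3 to 725.2 CPM) overlapped. In bulk RNA, more cycling cells and more RNA per cell cannot be told apart. In CPM, the pooled level of the median member was 13.1 times as high in ECs as in hepatocytes, 3.55 times as high in ECs as in HSCs and 0.789 times as high in KCs as in ECs, where members at 0 in hepatocytes enter at the lower bound that 3 counts allow. With TMM scaling the difference from hepatocytes was smaller, a median log2 fold change of 2.50 against 3.71 in CPM for ECs.

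**Figure D1:**
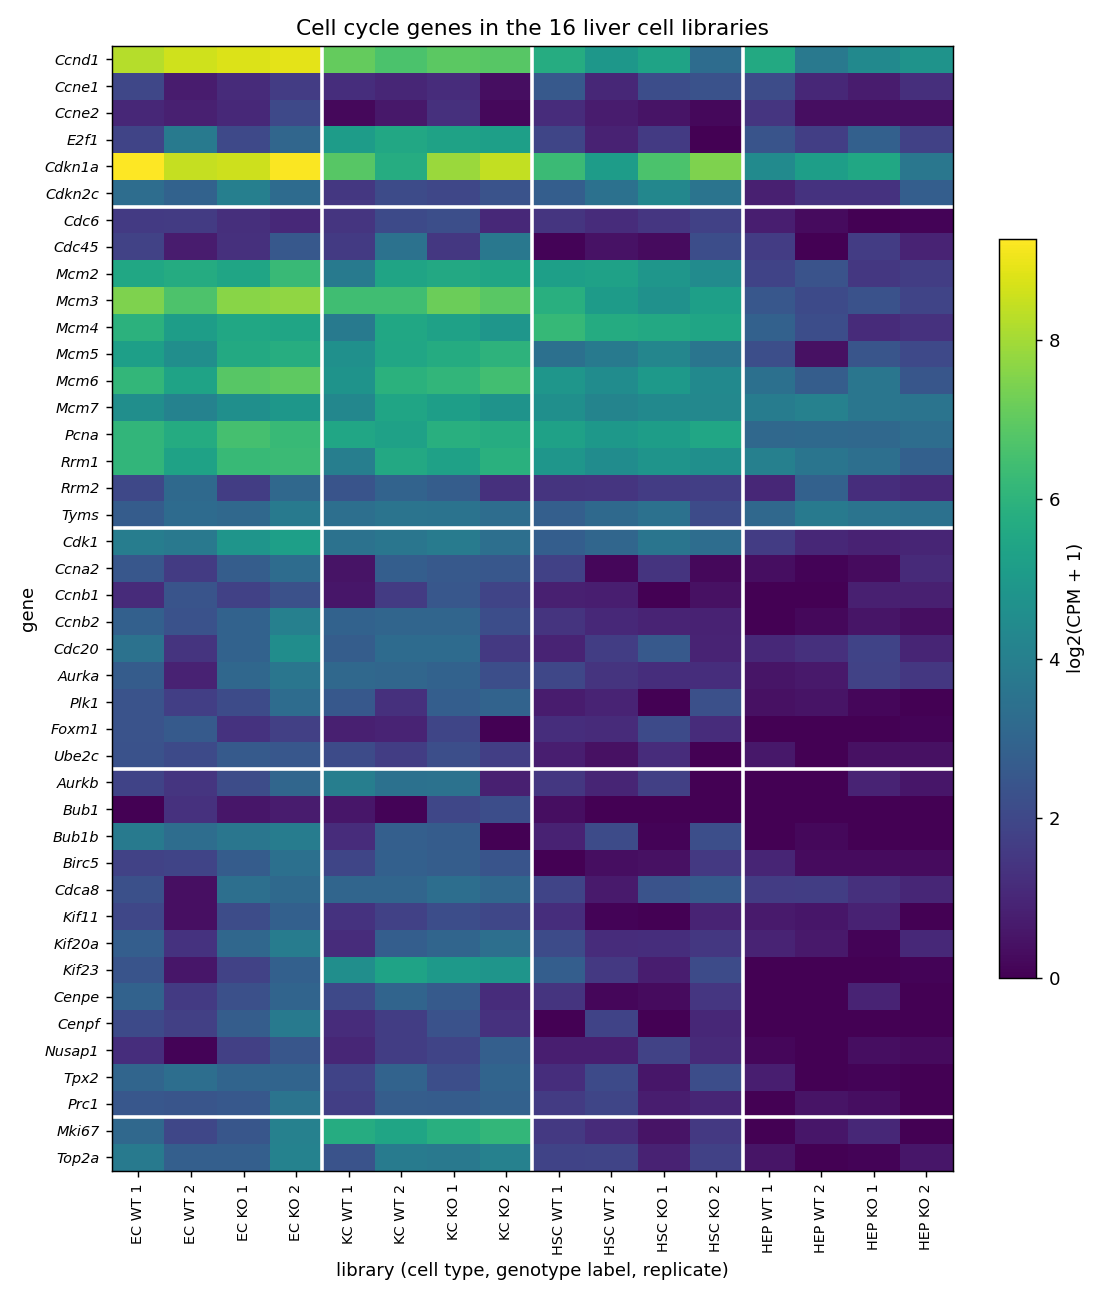
Heat map of the 42 cell cycle genes (vertical, grouped by role) in the 16 libraries (horizontal, grouped by cell type and label), with colour for log2(CPM + 1). Mean levels were lowest in hepatocytes for 36 of the 42 genes, and Mki67, Kif23 and E2f1 were higher in the 4 KC libraries than in any other library.

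Most of this RNA came from genes that act before mitosis. Per length, in TPM (transcripts per 1000000), G1 genes made up 51.2 to 63% of the summed level in ECs and 23.7 to 45.2% in HSCs, where replication genes made up 46.4 to 66.3%. Cdkn1a, the CDK inhibitor p21, had the highest mean of the members in every cell type, at 430.9 ± 130.1 TPM in ECs, 139 ± 96.87 in KCs, 87.16 ± 51.77 in HSCs and 17.67 ± 9.403 in hepatocytes (SD, n = 4). Ccnd1 (cyclin D1), which drives G1, came next in ECs at 266.5 TPM and in hepatocytes at 12.69 TPM. Cdkn1a was not the highest member in every library. Its lowest KC library had 41.09 TPM, where Ccnd1 had at least 57.67 in all KC libraries. Its lowest HSC and hepatocyte libraries had 30.65 and 7.127 TPM, where Pcna had at least 39.26 and 7.189. Spindle genes made up 4.81 to 9.37% of the summed TPM in KCs, above 2.28 to 4.03% in the other cell types, and Mki67 with Top2a made up 2.52 to 3.29% in KCs against 0.116 to 0.656% elsewhere. The summed spindle TPM itself was 41.88 ± 9.599 in KCs and 41.34 ± 18.36 in ECs (SD, n = 4), with overlapping libraries, so that the larger share in KCs stood beside a lower G1 sum.

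**Figure D2:**
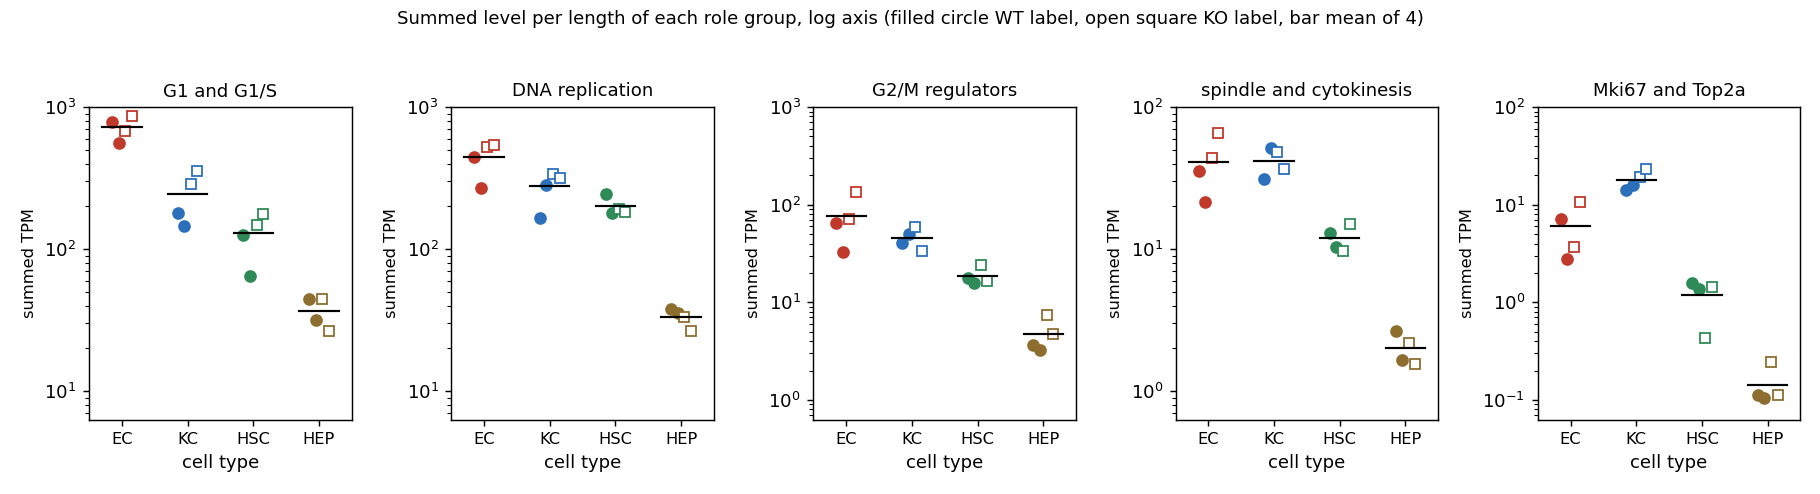
Summed TPM of the members of each role group (log axis) in every library, by cell type and label. In all 5 role groups the HSC and hepatocyte libraries lay below the EC libraries, while Mki67 with Top2a was highest in the 4 KC libraries, at 14.2 to 23.1 TPM against 2.8 to 10.6 TPM in ECs.

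Of the 42 genes, 24 had their highest mean CPM in ECs, 14 in KCs, 3 in HSCs and 1 in hepatocytes. Among all 17214 genes tested over the 16 libraries, the shares were 37.7% in ECs, 20.7% in KCs, 26.3% in HSCs and 15.3% in hepatocytes. In ECs, every library of Ccnd1, Cdkn1a and the spindle checkpoint kinase Bub1b was above every library of the other cell types, and in KCs the same held for E2f1, Kif23 and Mki67. Such separation was seen for 10.5% of all genes in ECs and 7.37% in KCs, so that 3 of 42 members in either cell type was no larger a share.

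**Figure D3:**
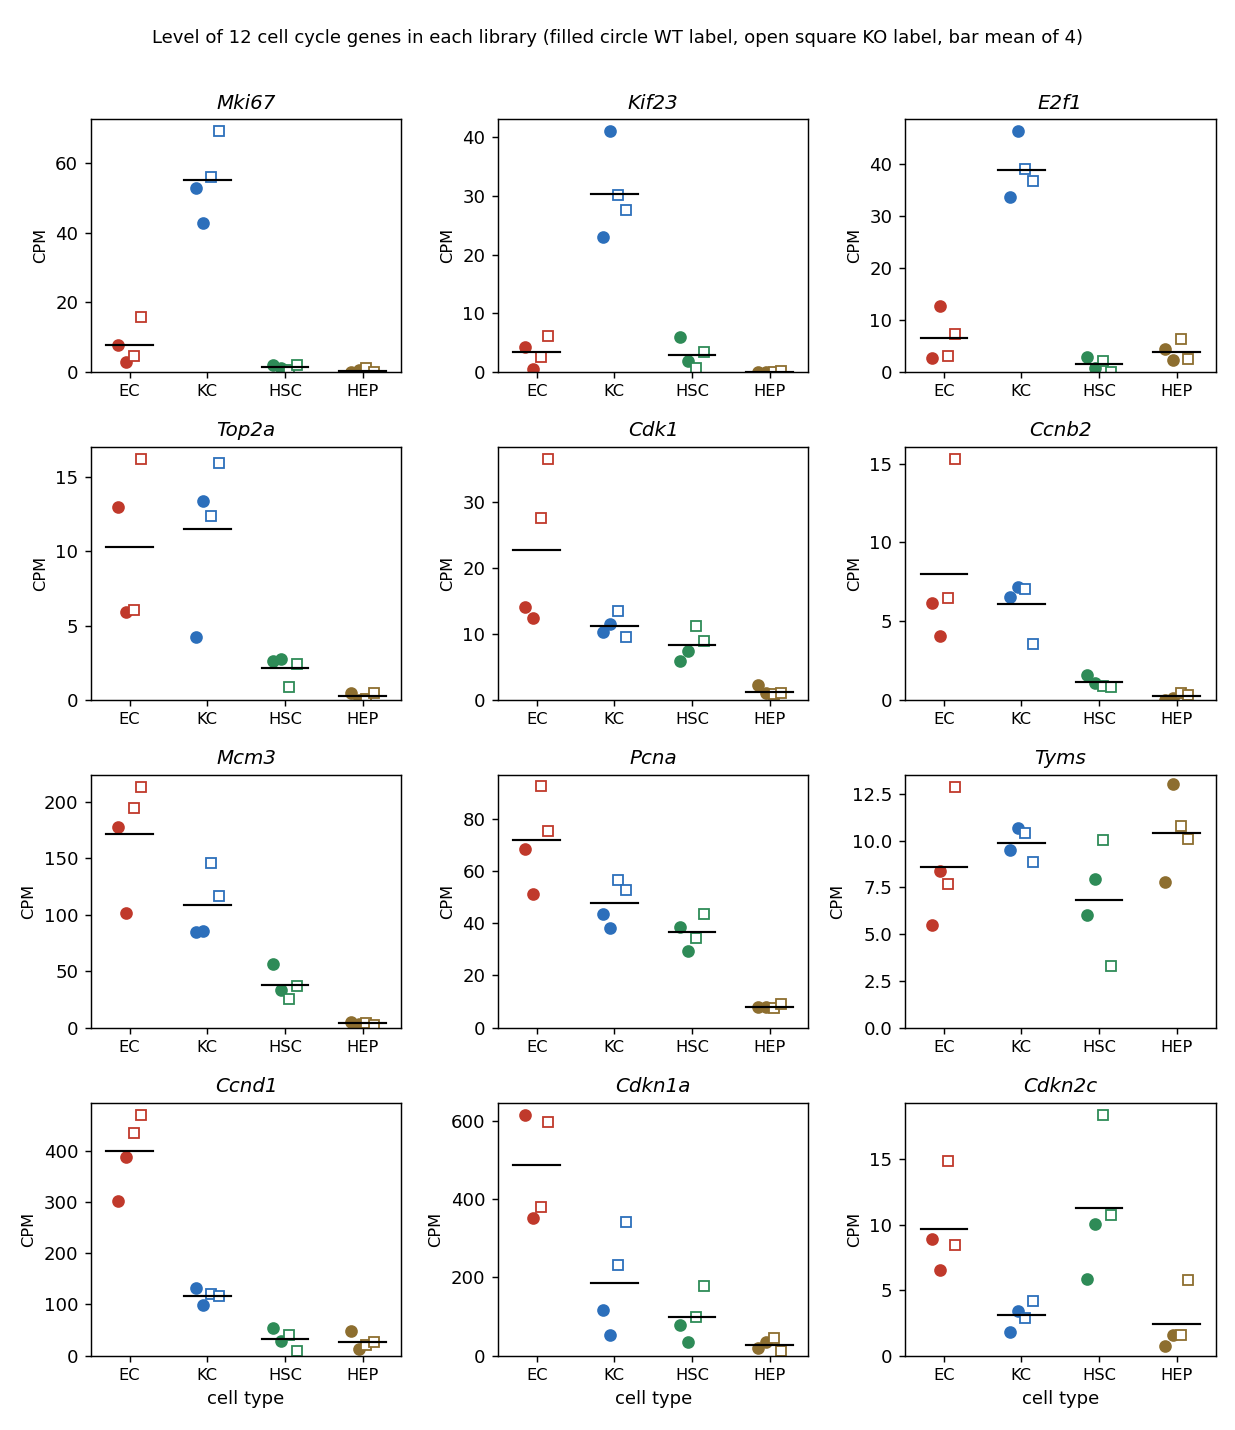
CPM of 12 members in each library by cell type (filled circles, WT label; open squares, KO label; bars, mean of the 4 libraries). The KC libraries of Mki67 sit between 42.9 and 69.2 CPM, above all others, and those of Ccnd1 are highest in ECs, between 302 and 471 CPM.

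Between KCs and ECs few members passed the test, and they went both ways. With edgeR's quasi-likelihood test over all 16 libraries, at a Benjamini-Hochberg adjusted p under 0.05, 4 members were higher in KCs, against a background of 14.5% of all genes, and 1 was lower, against 17.5%. With library size scaling 3 were higher and 5 lower, where 36.2% of all genes were called in either direction. The median log2 fold change of the members was -0.02, beside -0.13 over all genes.

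Mki67, which coats mitotic chromosomes and serves as the common marker of dividing cells (ENSMUSG00000031004, chr7:135689784-135716361), had 52.9 and 42.9 CPM in KC WT and 56.0 and 69.2 CPM in KC KO. ECs had 7.68 and 2.95 CPM in WT and 4.60 and 15.9 CPM in KO, and all 4 KC libraries lay above all EC libraries. The log2 fold change was 3.19 (SE 0.773), with an adjusted p of 0.00765. Kif23, a kinesin of the central spindle in cytokinesis (ENSMUSG00000032254, chr9:61915905-61946774), had 22.9 to 41.0 CPM in KCs against 0.466 to 6.19 CPM in ECs, with a log2 fold change of 3.51 (SE 0.76, adjusted p 0.00465). E2f1, an activator of S phase genes (ENSMUSG00000027490, chr2:154559407-154569892), had 33.6 to 46.3 CPM in KCs against 2.72 to 12.7 CPM in ECs, with a log2 fold change of 2.92 (SE 0.766, adjusted p 0.012). With single libraries left out, the log2 fold change of Mki67 ran from 2.90 to 3.84. That of Kif23 ran from 3.11 to 4.77 and that of E2f1 from 2.63 to 3.66. These ranges include the fits without KC KO replicate 1 and EC WT replicate 2, and the part of immature neutrophil markers was not tested. E2f1 lost its call without EC KO replicate 1 (adjusted p 0.0523), and leaving out single libraries gave 0.0141 to 0.0523. Within the libraries labelled WT all 3 genes were called, and within those labelled KO none was, with an adjusted p of 0.103 for Mki67, 0.0512 for Kif23 and 0.0963 for E2f1 and the same sign. These were the highest values over all alternatives, and the lowest were 1.19e-14, 4.95e-11 and 4.8e-11.

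Ccnd1 (ENSMUSG00000070348, chr7:144929931-144939925) was lower in KCs, at 98.1 to 133 CPM against 302 to 471 CPM in ECs, by a log2 fold change of -1.43 (SE 0.455, adjusted p 0.0314). Its libraries did not overlap, yet the call was lost without any 1 of the 8 EC and KC libraries (adjusted p 0.0563 to 0.111). The helicase subunit Mcm7 was called higher in KCs at 0.74 (SE 0.257, adjusted p 0.0453), which was lost with library size scaling (0.214) and without any 1 of EC WT replicate 2, EC KO replicates 1 and 2, KC WT replicate 2 or KC KO replicates 1 and 2 (0.0132 to 0.185 when single libraries were left out). Exons of Ccnd1 and Mcm7 overlap antisense genes, and the strand setting of the counter is not given in the sources used here.

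Other genes of mitosis did not pass the test between these cell types. Top2a, the topoisomerase that untangles sister chromosomes, had 4.23 to 16.0 CPM in KCs and 5.90 to 16.2 CPM in ECs, with overlapping libraries and a log2 fold change of 0.39 (SE 0.702, adjusted p 0.729). Cdk1, the kinase that starts mitosis, had 9.54 to 13.5 CPM in KCs and 12.4 to 36.4 CPM in ECs, at -0.57 (SE 0.291, adjusted p 0.156). With library size scaling Cdk1 was called lower in KCs (-0.88, adjusted p 0.0298), and over all alternatives its adjusted p was 0.0298 to 0.946. The TPM ratio of Mki67 to Top2a was 2.88 to 11.2 in KCs, 0.448 to 0.877 in ECs and 0.396 to 0.717 in HSCs. The ratio of Kif23 to Top2a was 1.97 to 6.19 in KCs, 0.0901 to 0.472 in ECs and 0.796 to 2.56 in HSCs, which overlapped KCs, and that of Mki67 to Cdk1 was 1.83 to 3.56 in KCs and 0.0819 to 0.267 in ECs.

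Relative to HSCs, KCs were higher in 13 members, from all 5 role groups (background 20.6%), and lower in 1 (background 22.3%), with a median log2 fold change of 1.54 beside -0.09 over all genes. They included Mki67 (0.415 to 1.94 CPM in HSCs, log2 fold change 5.39, SE 0.872, adjusted p 0.000408), E2f1 (4.92, SE 0.854, adjusted p 0.000678) and Mcm3, a helicase subunit (1.57, SE 0.262, adjusted p 0.00052). Birc5 (survivin), the mitotic cyclin Ccnb2 and Top2a were also higher. Cdkn2c, the CDK4/6 inhibitor p18, was the member that was lower in KCs, at 1.81 to 4.13 CPM against 5.83 to 18.4 CPM in HSCs (-1.76, SE 0.496, adjusted p 0.0133), and lost its call without KC WT replicate 1 or HSC WT replicate 2. Within the libraries labelled WT 4 members of 41 were called, where 21.2% of all genes were, and within those labelled KO 13 of 42, where 31% were.

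ECs were higher than HSCs in 11 members and lower in 0, where all genes gave 13.3% and 12.8%. The median was 1.51 beside 0.02. Ccnd1, at 8.714 to 52.96 CPM in HSCs, had a log2 fold change of 3.41 (SE 0.491, adjusted p 0.000298). Cdkn1a, at 353 to 615 CPM in ECs and 34.2 to 179 CPM in HSCs, was higher by 2.21 (SE 0.493, adjusted p 0.00593), but not within the libraries labelled KO alone (adjusted p 0.16, the highest of all alternatives, the lowest being 9.41e-14). The replication genes Mcm3, Mcm5, Mcm6, Pcna and Rrm1 were among the 11, with Cdk1, Ccnb1, Ccnb2 and Birc5. Cdk1 (1.10, SE 0.294, adjusted p 0.0161) lost its call without EC WT replicate 1, EC KO replicate 2, HSC KO replicate 1, HSC KO replicate 2 or HSC WT replicate 1, with 0.0336 to 0.099 when single libraries were left out. Pcna (0.71, SE 0.199, adjusted p 0.0204) lost its call without EC WT replicate 1, EC KO replicate 1, EC KO replicate 2, HSC KO replicate 1 or HSC WT replicate 2 (0.026 to 0.136, and 0.00167 to 0.333 over all alternatives). Leaving out single libraries of the 8, Mcm3, Mcm6, Birc5, Ccnb2, Ccnd1 and Cdkn1a were called in all 8 fits, Mcm5 in 0, Rrm1 without EC WT replicate 2 alone, and Ccnb1 without EC WT replicate 1 or HSC KO replicate 2. Without EC KO replicate 2 the count was 6, where 17% of all genes were called, and within the libraries labelled WT it was 2 of 41, Ccnd1 and Cdkn1a, where 10.2% of all genes were.

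Hepatocytes were at the detection limit for many members. In each hepatocyte library 12 to 17 of the 42 genes had 3 counts or fewer, against 0 to 1 in ECs, 0 to 3 in KCs and 3 to 8 in HSCs. The checkpoint kinase Bub1 and the kinetochore protein Cenpf had no count in any hepatocyte library. Against 3 counts over the group, Cenpf was at least 124-fold higher in ECs, at least 46.1-fold higher in KCs and at least 18.8-fold higher in HSCs. Foxm1, a transcription factor of the G2 genes, Bub1b and Kif23 had 3 counts or fewer in every hepatocyte library.

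KCs were higher than hepatocytes in 28 members (background 29.3%) and lower in 1 (background 26.3%). ECs were higher in 26 (background 33.2%) and lower in 1 (background 25.5%), and HSCs were higher in 11 (background 34.0%) and lower in 2 (background 24.4%). Medians of the fitted log2 fold changes were 2.44, 2.50 and 1.08, beside 0.24, 0.54 and 0.60 over all genes, and 3.28, 3.71 and 1.82 as CPM ratios with members at 0 set to their bound. Of the 13 spindle genes 10 were higher in KCs and 9 in ECs. Mcm3, at 2.76 to 4.78 CPM in hepatocytes and 102 to 213 CPM in ECs, was higher in ECs by 4.17 (SE 0.296, adjusted p 2.61e-07). Pcna, the sliding clamp of DNA polymerase, had 7.67 to 8.96 CPM in hepatocytes and was higher by 1.75 in ECs (SE 0.207, adjusted p 1.49e-05), by 1.49 in KCs (SE 0.205, adjusted p 5.87e-05) and by 1.04 in HSCs (SE 0.204, adjusted p 0.000885).

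Tyms, which makes thymidylate for DNA synthesis, went the other way. It had 7.78 to 13.0 CPM in hepatocytes, 5.51 to 12.9 CPM in ECs, 8.87 to 10.7 CPM in KCs and 3.32 to 10.0 CPM in HSCs, and the ranges overlapped. After TMM scaling it was lower in ECs (-1.68, SE 0.373, adjusted p 0.0021), KCs (-1.14, SE 0.367, adjusted p 0.0191) and HSCs (-1.76, SE 0.374, adjusted p 0.0016) than in hepatocytes. With library size scaling none of the 3 differences was called, with log2 fold changes of -0.30, -0.08 and -0.61 and the highest adjusted p of all alternatives, 0.49, 0.922 and 0.165. E2f1 was lower in HSCs than in hepatocytes (0 to 2.82 against 2.32 to 6.25 CPM, -2.61, SE 0.795, adjusted p 0.014), which was also lost with library size scaling (adjusted p 0.116, over all alternatives 4.37e-07 to 0.116). With that scaling HSCs were higher than hepatocytes in 23 of 42 members and lower in 0, where 69.8% of all genes were called in either direction. TMM factors moved the log2 fold changes against hepatocytes by -1.04 in KCs, -1.36 in ECs and -1.11 in HSCs relative to library size scaling, and those of KCs against ECs by 0.31 and of ECs against HSCs by -0.24. No called member changed sign between the scalings, but members that were not called did. These numbered 9 for HSCs, 5 for ECs and 2 for KCs against hepatocytes. There were 4 for KCs against ECs, 1 for KCs against HSCs and 2 for ECs against HSCs.

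In the targeted cell type, no member passed the test between labels. In ECs edgeR called 305 of 14631 genes (2.08%) and 0 of the 41 members tested. With hepatocyte-enriched genes left out it called 0 of 13798 genes. At an unadjusted p under 0.05 in the main fit there were 5 members (12.2%, against 15% of all genes). These were Cdk1, Mcm6, Cenpf, Birc5 and Mcm5, all with positive fold changes, of which Mcm6, Birc5 and Mcm5 were named after their values were seen. DESeq2 called 2, Cdk1 and Mcm6, where it called 6.85% of all genes. The median log2 fold change, KO over WT, was 0.58 with 34 of 41 above 0, beside -0.01 over all genes. In 20 of the 41 (48.8%) the labels did not overlap, against 48.5% of all genes. EC KO replicate 2 was the highest EC library for 28 of the 42 genes and EC WT replicate 2 the lowest for 31. Without EC KO replicate 2 the median was 0.15 with 27 of 42 above 0.

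Cdk1 had 14.1 and 12.4 CPM in EC WT and 27.5 and 36.4 CPM in EC KO. The labels did not overlap, and the log2 fold change was 1.28 (SE 0.314, adjusted p 0.126 by edgeR and 0.0241 by DESeq2), with an adjusted p from 0.0125 to 0.635 over the alternatives. Mcm6 had 68.9 and 40.0 CPM in WT and 115 and 126 CPM in KO, at 1.14 (SE 0.312, adjusted p 0.161). The hepatocyte marker sums differed between these labels as well, 10780 and 22020 against 2543 and 1811 CPM, and with hepatocyte-enriched genes left out the log2 fold change of Cdk1 was 1.23 (adjusted p 0.245, within the range above).

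Mki67 overlapped between the labels of ECs, with 7.68 and 2.95 CPM in WT and 4.60 and 15.9 CPM in KO (log2 fold change 0.96, adjusted p 0.626), and was at -0.27 without EC KO replicate 2. Fold changes of Top2a (0.25), Ccnb1 (0.24), Ccne2 (1.23), Ccnd1 (0.40), Pcna (0.48), Mcm2 (0.34) and Cdkn1a (0.02) did not pass the test either. The 3 highest were Nusap1 (2.27) and Cdca8 (2.05), both of the spindle, and Cenpf (1.74), and the 3 lowest were Foxm1 (-1.25), the licensing factor Cdc6 (-0.67) and E2f1 (-0.52), with adjusted p from 0.267 to 0.83. Nusap1 and Cdca8 had 1 and 4 counts in EC WT replicate 2. Leaving out single libraries gave 1.36 to 5.37 for Nusap1 and 1.16 to 4.82 for Cdca8, both highest without EC WT replicate 1, where Cdca8 was called (adjusted p 0.0239, with 0.779 as the highest).

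**Figure D4:**
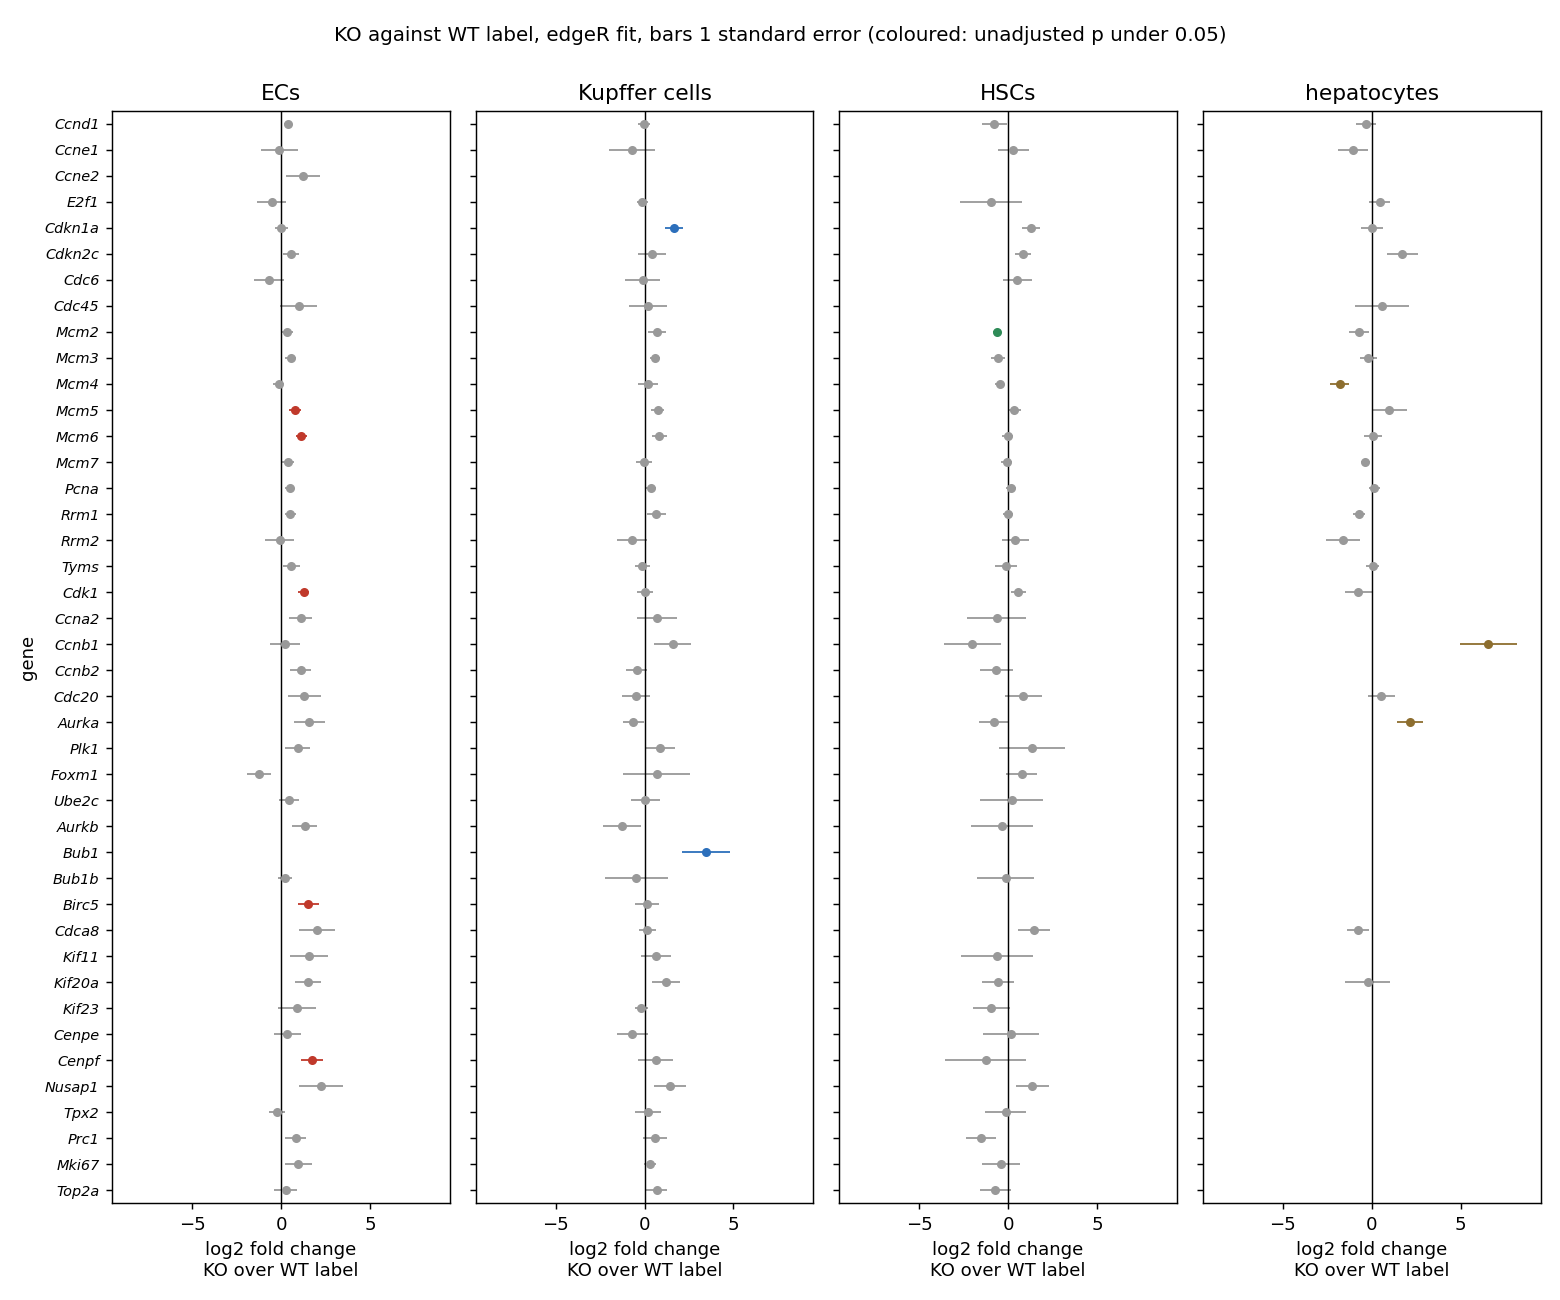
Log2 fold change, KO over WT label, of each member in each cell type, with bars of 1 SE; colour marks an unadjusted p under 0.05, and members that were not tested have no point. No member passed the adjusted threshold of edgeR in any of the 4 panels. DESeq2 called Cdk1 and Mcm6 in ECs, where it called 6.85% of all genes. In ECs 34 of 41 points lie above 0.

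In KCs, HSCs and hepatocytes edgeR called 0 of all genes between labels (0% of 13867, 14390 and 11548 tested), so 0 members. DESeq2 called 0 members, and of all genes 0.529% in KCs, 2.89% in HSCs and 0.344% in hepatocytes. At an unadjusted p under 0.05 there were 2 members in KCs, 1 in HSCs and 3 in hepatocytes, which is 4.88%, 2.63% and 13.6% of those tested, against 5.09%, 8.75% and 7.11% of all genes. Members tested numbered 41 in KCs, 38 in HSCs and 22 in hepatocytes, since the others were below the filter on low counts. Median log2 fold changes were 0.20, -0.12 and -0.08, beside -0.02, 0.02 and -0.02 over all genes, and labels did not overlap in 36.6%, 36.8% and 36.4% of the members tested, against 37.3%, 40.5% and 40.8% of all genes.

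In KCs Cdkn1a had 116 and 52.7 CPM in WT and 231 and 341 CPM in KO, at 1.68 (SE 0.503, unadjusted p 0.0148, adjusted p 0.933). The labels did not overlap. Summed dissociation stress genes were 25550 and 34350 CPM in KC WT and 13080 and 7564 CPM in KC KO, and their part in the KC values was not tested. Bub1 had 0.470 and 0.0653 CPM in WT, the second of which is 1 count, and 2.90 and 3.59 CPM in KO (unadjusted p 0.0396). Mki67 had a log2 fold change of 0.32 (SE 0.329, adjusted p 0.955). The highest after Bub1 and Cdkn1a was Ccnb1 (1.58), and the lowest were the mitotic kinase Aurkb (-1.27), Ccne1 (-0.70) and Rrm2 (-0.69), a ribonucleotide reductase subunit. With single libraries left out, the last 3 ran from -4.07 to -0.40, -2.10 to -0.02 and -1.95 to -0.04.

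In HSCs Mcm2, a helicase subunit, had 36.3 and 38.3 CPM in WT and 28.0 and 21.2 CPM in KO, without overlap (-0.63, SE 0.242, unadjusted p 0.0437, adjusted p 0.555). Cdkn1a had 79.2 and 34.2 CPM in WT and 98.9 and 179 CPM in KO (1.28, SE 0.515, adjusted p 0.574). The highest were Cdca8 (1.47), Nusap1 (1.36) and Plk1 (1.34), the lowest Prc1 (-1.55), Cenpf (-1.27) and Kif23 (-0.95), and none was called. Plk1 had 0 and 55 counts in KO, and Cenpf had 0 and 41 counts in WT. With single libraries left out, Plk1 ran from -6.59 to 2.34, Cenpf from -7.34 to 6.01 and Kif23 from -2.58 to 0.091. Cdca8 (0.73 to 3.01), Nusap1 (0.77 to 1.76) and Prc1 (-1.89 to -1.28) kept their sign.

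In hepatocytes Ccnb1 (cyclin B1) had no count in WT and 0.774 and 0.741 CPM, 23 counts in all, in KO, which is at least 7.67-fold higher (unadjusted p 0.0101, adjusted p 0.7). Aurka, a mitotic kinase, had 0.446 and 0.546 CPM in WT and 2.51 and 1.82 CPM in KO (2.16, SE 0.732, adjusted p 0.7). Mcm4 had 6.44 and 3.61 CPM in WT and 1.23 and 1.48 CPM in KO (-1.81, SE 0.553, adjusted p 0.7). For none of the 3 did the labels overlap. Other named extremes were Cdkn2c (1.73) and Mcm5 (0.99), and Rrm2 (-1.61) and Ccne1 (-1.06). With single libraries left out they ran from 0.40 to 2.42, 0.15 to 3.43, -2.42 to 0.33 and -1.75 to -0.01.

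Interaction terms tested whether 2 cell types differed in their KO to WT difference. No member passed in any of the 6 pairs with edgeR, while of all genes 2.07% passed for KCs against ECs, 0.593% for KCs against HSCs, 0.0116% for KCs against hepatocytes, 0.0349% for ECs against HSCs, 0.0697% for ECs against hepatocytes and 0.0755% for HSCs against hepatocytes. At an unadjusted p under 0.05 there were 0, 1, 4, 0, 3 and 6 of 42 members in the same order, or 0, 2.38, 9.52, 0, 7.14 and 14.3%, against 14, 11.7, 8.18, 4.85, 9.12 and 7.16% of all genes. DESeq2 called 1 member, Cdk1, for ECs against hepatocytes (edgeR 1.99, adjusted p 0.229) and 0 in the other pairs. Of all genes it called 4.38% for ECs against hepatocytes and 0.761 to 7.83% in the other pairs.

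Another 109 genes of the same pathways were listed for comparison, 28 of replication, 41 of mitosis, 12 cyclins, CDKs and inhibitors, 17 of the Rb, E2F and DREAM factors and 11 p53 targets. Of these, 0 were called between labels in any cell type by edgeR, and in ECs 7 were higher and 4 lower at an unadjusted p under 0.05. The shares of all genes in these comparisons of labels, in either direction, are those given above. Between cell types, 13 were higher and 16 lower in KCs than in ECs, and 32 were higher and 6 lower in ECs than in HSCs, of 106 tested. Over all genes the shares were the 14.5%, 17.5%, 13.3% and 12.8% given above. Of the 39 other mitosis genes tested, 23 were higher and 3 lower in KCs than in hepatocytes, against 29.3% and 26.3% of all genes.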

How the data were processed

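RNA of 16 libraries, 2 for each of 8 groups, had been sequenced and counted by the authors, who deposited raw read counts per Ensembl gene without normalization. The submitters' processing notes name Trimmomatic 0.32, HISAT2 2.1.0, HTSeq 0.9.1, edgeR and GRCm38. The labels name more than 1 library kit, and the annotation release and strand setting are not given in the sources used here. The 5 summary lines of the counter were left out; reads assigned to no feature came to 2.51 to 3.21% in hepatocytes and 10.8 to 21.5% elsewhere. The members and gene lists were chosen with earlier results of these data known.

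CPM used the total over gene rows, and TPM used exonic lengths of GENCODE mouse release M21. Tests used edgeR 4.0.16 in R 4.3.3 (filterByExpr, TMM, quasi-likelihood), with Benjamini-Hochberg adjustment over all genes tested and a threshold of 0.05. Labels were compared within a cell type (4 libraries), and cell types and interactions over all 16, as the mean of both labels. Some libraries may come from the same liver, which the tests do not model. Alternatives were DESeq2 1.42.0, other scaling and filters, fewer libraries and each library left out; the KO-labelled libraries alone and library size scaling were added after seeing the data. The edgeR fit between labels was first tested on simulated counts, and DESeq2 was not. With 2 libraries against 2, an exact permutation test cannot go below 0.333, so none was made. Floors and bounds cover counting error only.

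Named members in a comparison of labels were those called, or else the 3 highest and 3 lowest log2 fold changes among members with at least 1 CPM in 1 label, with Mki67, Top2a, Cdk1, Ccnb1, Ccnd1, Ccne2, Pcna, Mcm2 and Cdkn1a in each.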

Additional observations from a re-analysis of the deposited data

How the results depend on the processing

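No paired analysis was possible because no label number is shared between groups. Some numbers follow closely on each other across cell types, and whether they mark 1 liver is not given in the labels. Of 1125 alternative values of single genes, 1020 kept their direction and side of the threshold, 69 lost and 7 gained a call, and 29 changed sign. Causes were not tested. Members called between labels in ECs numbered 2 with DESeq2 (6.85% of all genes) and 3 with no filter on low counts (5.26%). The unfiltered fits called 1 (Cdkn1a) in HSCs (2.7%) and in KCs (0.704%). Interactions gave 1 for ECs against hepatocytes with DESeq2 (4.38%). Unfiltered, they gave 1 for KCs (1.27%) and 2 for HSCs (2.55%) against hepatocytes. ECs against HSCs gave 18 with DESeq2 (32.3%) and 17 without the filter (17.8%), against 11 in the main fit (26%). Without the filter KCs against HSCs gave 23 (25.7%) against 14 (42.9%), and HSCs against hepatocytes 22 (35%) against 13 (58.4%). Library size scaling gave 8 (3 higher, 5 lower) for KCs against ECs (36.2%), against 5 in the main fit (32%). For HSCs against hepatocytes it gave 23, all higher (69.8%), against 13 (58.4%). With at least 10 counts in every library, fewer than the 42 members were tested. Counts under this filter are therefore not out of 42. KCs gave 5 against HSCs (51.3%) and 10 against hepatocytes (68.9%). ECs then gave 7 against HSCs (31.8%) and 10 against hepatocytes (71.1%), and HSCs 8 against hepatocytes (69.8%). WT libraries alone gave 4 for KCs against HSCs (21.2%), 17 for KCs against hepatocytes (40.6%) and 2 for ECs against HSCs (10.2%). KO libraries alone gave 0 for KCs against ECs (24.1%). The summed member level of HSCs was 27.05% of that of ECs, or 31.95% after TMM, and that of hepatocytes 8.585%, 5.982% per length or 21.94% after TMM. CHR letters fell from 50% to 31.6% of windows before the start alone. Signs changed for Cdkn1a in ECs (0.02; -0.002 with 10 counts, -0.023 with hepatocyte-enriched genes left out), Ccnd1 in KCs (-0.03; 0.039 with library size scaling, 0.004 with those genes left out) and Cdk1 in KCs against ECs (-0.57; 0.074 in WT libraries). With single libraries left out, 2 to 5 members were called for KCs against ECs and 6 to 10 for ECs against HSCs. For KCs against ECs there were 2 without EC KO replicate 1 (21.7% of all genes). There were 3 without EC WT replicate 2 (24.2%), EC KO replicate 2 (21.7%) or KC KO replicate 2 (23.1%). For ECs against HSCs there were 6 without EC KO replicate 2 (17%). Between labels in ECs such fits left 1 library in a label, so the number of members called there decides nothing. Log2 fold changes then spanned 0 in ECs for Mki67 (-0.27 to 1.86), Top2a (-0.70 to 0.98), Ccnb1 (-0.38 to 1.40), Mcm2 (-0.22 to 0.75), Cdkn1a (-0.40 to 0.52) and E2f1 (-1.33 to 0.94). They did so in HSCs for Mki67 (-1.99 to 0.34), Pcna (-0.081 to 0.39), Cenpf (-7.34 to 6.01), Kif23 (-2.58 to 0.091) and Plk1 (-6.59 to 2.34), and in KCs for Cdk1 (-0.20 to 0.21) and Ccnd1 (-0.33 to 0.33). In hepatocytes they did so for Ccnd1 (-0.96 to 0.91), Pcna (-0.033 to 0.32), Cdkn1a (-1.15 to 0.66) and Rrm2 (-2.42 to 0.33), and for Top2a in KCs against ECs (-0.021 to 0.91).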

Other observations

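Mcm10, which loads DNA polymerase at replication origins, was higher in hepatocytes than in the other cell types, unlike the MCM helicase genes. It had 48.8 to 93.6 CPM in hepatocytes, 4.81 to 19.3 CPM in ECs, 3.89 to 17.3 CPM in KCs and 0.0691 to 5.82 CPM in HSCs, and the hepatocyte libraries lay above all others. By edgeR the log2 fold change against hepatocytes was -4.36 in ECs (adjusted p 6.53e-05), -3.73 in KCs (adjusted p 0.000189) and -6.14 in HSCs (adjusted p 9.38e-06). Of the 28 other replication genes, 6 were higher and 9 lower in HSCs than in hepatocytes, where all genes gave 34.0% and 24.4%. Tk1, the thymidine kinase of S phase cells, had 54.2 to 94.0 CPM in KCs, above 21.8 to 32.2 CPM in hepatocytes and 8.47 to 19.7 CPM in ECs.

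The D cyclins divided the cell types in another way than Mki67. Ccnd2 had 868 to 941 CPM in ECs, 433 to 666 CPM in HSCs, 33.8 to 116 CPM in KCs and 4.11 to 7.71 CPM in hepatocytes, and no range overlapped another. Cdk4, the kinase that D cyclins bind, had 241 to 305 CPM in ECs and 38.9 to 46.3 CPM in hepatocytes. Cenpa, the histone of centromeres, had 99.0 to 125 CPM in ECs and 13.3 to 71.8 CPM in KCs.

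In KCs, where Cdkn1a had the lowest unadjusted p among the members, 2 of the 11 listed p53 targets had unadjusted p under 0.05, in opposite directions. Neither passed the adjusted threshold (adjusted p 0.933 for both), and the share of all genes under 0.05 is given above. Mdm2, the ligase that degrades p53, had 141 and 106 CPM in WT and 258 and 309 CPM in KO. Btg2, a growth inhibitor and early response gene, had 1891 and 2041 CPM in WT and 1092 and 345 CPM in KO. The summed p53 targets, Btg2 among them, were 2473 and 2539 CPM in KC WT and 1763 and 966 CPM in KC KO. The summed dissociation stress genes were also lower in KC KO, and their part in these values was not tested.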
